A study of Mus musculus with 6 samples.

Results

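Contacts along the mouse X-inactivation centre were compared between undifferentiated female embryonic stem cells (day 0) and the same kind of cells after 4 days of differentiation (day 4). Both groups carried CAST/EiJ x 129S1 chromosomes and were untransfected, and each was 1 library out of the 6 samples of the series. Day 0 cells grew on irradiated mouse embryonic fibroblast feeders with LIF, the cytokine that keeps stem cells undifferentiated. Day 4 cells had been taken off the feeders and formed embryoid bodies in medium without LIF. The method, Hi-C2, enriches an in situ Hi-C library (here cut with MboI) with 120 bp probes for 1 region, so that pairs of fragments that lay close together in the nucleus are counted at high depth within it. Day 7 control values are set beside some results; those cells had received a scrambled LNA oligonucleotide, so that day and transfection cannot be told apart there.

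A map of all reads averages over both X chromosomes and over all cells in the dish. It holds no expression, so neither the cell type nor left-over feeder cells could be checked against marker genes. With 1 library per day there is no replicate check and no p-value. The 95% intervals given here cover counting error only; they leave out the spread between libraries, PCR copies and the error of the per-bin correction.

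The X-inactivation centre holds the genes that switch on silencing of 1 X chromosome in each female cell. Xist makes the long noncoding RNA that coats and silences the X it comes from, and Tsix, transcribed antisense through it, represses it. Jpx and Ftx are noncoding genes on the Xist side that favour Xist, and Rlim, farther along the chromosome, encodes a ubiquitin ligase that activates it. In stem cells the region is known to fold into topological domains, stretches that contact themselves more than their neighbours, and a domain border falls between the Tsix and the Xist promoters. Silencing starts as the cells leave the undifferentiated state.

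The map covered chrX:100215001-101265000 (mm9) in 210 bins of 5 kb, of which 207 were used; the 3 bins left out held no probe and few contacts. At separations of 10 kb or more the day 0 map held 79971 contacts and the day 4 map 81019, as recovered from the deposited values. With contacts between neighbouring bins included, the maps held 91391 at day 0 and 88600 at day 4. On that basis contacts per bin had a median of 820 at day 0 and 757 at day 4, and 1 of 207 bins differed by 1.5-fold or more. The depth of the maps and of their bins was thus alike. Pairs of bins without a contact made up 34.9% of pairs at day 0 and 28.5% at day 4, so single pairs were not read alone.

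Signal was set against the mean of the same map over all bin pairs that lie equally far apart, so that an observed over expected value of 1 is average contact for the distance. A gain in 1 place therefore lowers the value of other places at the same separation, and gains and losses are relative to the map. Local minima of the insulation score (the log2 of the mean signal that crosses a bin between the 100 kb on each side, over the median of the map) were taken as boundaries. The day 0 map had 4 of them, and they cut the region into 5 stretches, named here after genes they hold. The Nap1l2 stretch was 215 kb long (chrX:100215001-100430000), and the Cdx4-Tsix stretch of 220 kb (chrX:100430001-100650000) held Cdx4, Chic1, Tsx and the Tsix promoter. The Xist-Ftx stretch of 175 kb (chrX:100650001-100825000) held Xist, Jpx and Ftx. The Zcchc13 stretch of 275 kb (chrX:100825001-101100000) began at Zcchc13, and the Rlim stretch of 165 kb (chrX:101100001-101265000) ran to the end of the map. Because this division was read from the day 0 map, low day 0 contact across its borders is partly set by the choice.

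Some sequence at the borders is shown because the results turn on these places. The 9-letter motif CNAGGNGGC, part of the recognition sequence of the architectural protein CTCF, was searched on both strands of the mm9 genome over the whole map. It occurred 86 times, 35 times on the plus and 51 times on the minus strand, and was in 33.3% of bins. For the left boundary, the Tsix-Xist boundary and the boundary inside the Zcchc13 stretch at day 4, 1 match in the bin or next to it is printed. Sequences have 20 bases to each side and are on the strand of the match, with the matched letters in capitals. The matches of the day 0 boundaries at Zcchc13 and before Rlim are not printed. The left boundary match lay on the plus strand at chrX:100434507-100434555, in an intron of 4930519F16Rik. The match shared by the neighbouring Tsix-Xist boundary bins of the 2 maps lay on the minus strand at chrX:100648303-100648351, in an intron of Tsix. The match of the boundary that day 4 had inside the Zcchc13 stretch was on the plus strand at chrX:100891775-100891823, between genes. The last match, on the minus strand at chrX:101177236-101177284 just before the Rlim start, lay in the Rlim end of the strongest focal contact of day 0, whose Xist end held no match.
left boundary: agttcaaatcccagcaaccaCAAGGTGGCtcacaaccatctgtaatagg
Tsix-Xist boundary: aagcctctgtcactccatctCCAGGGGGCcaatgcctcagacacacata
day 4 boundary beyond Zcchc13: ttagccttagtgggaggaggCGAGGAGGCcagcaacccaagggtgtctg
Rlim end of the strongest day 0 contact: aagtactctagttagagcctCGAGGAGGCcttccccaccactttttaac
All 6 boundary bins of the 2 maps had a match in the bin or next to it, and 1 of them in the bin itself. Of all stretches of 3 neighbouring bins 72.6% had one, so a match near a boundary sets it little apart from other places. A match is a description of the letters, not of binding.

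The change from day 0 to day 4 centred on the Cdx4-Tsix stretch. In windows of 50 kb by 50 kb, "gained" and "lost" stand for a change of 1.5-fold or more with at least 20 contacts in both maps together, and a window belongs to the stretch with most of its bins. Of 231 windows, 44 were gained (19.0%) and 20 were lost (8.66%). All 44 gained windows had the Cdx4-Tsix stretch on at least 1 side: of the 95 windows that touched it 44 were gained and none was lost, and of the other 136 windows none was gained and 20 were lost. The median log2 ratio was 0.53 over the first set and -0.19 over the second, against 0.03 over all windows.

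The split depended on the scaling. With each map scaled to its total instead of to its mean at each separation, 67 windows were gained and 5 lost; 54 of those gained touched the Cdx4-Tsix stretch, and the median of all windows moved to 0.12. With the median at equal separation as the expected value, 31 of 195 windows were gained, all of them touching the Cdx4-Tsix stretch, and 32 were lost, of which 2 touched it. The median of all windows was then -0.09. The lead of the Cdx4-Tsix stretch among gains was thus present under each scaling, while the number of losses was not stable.

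**Figure D1:**
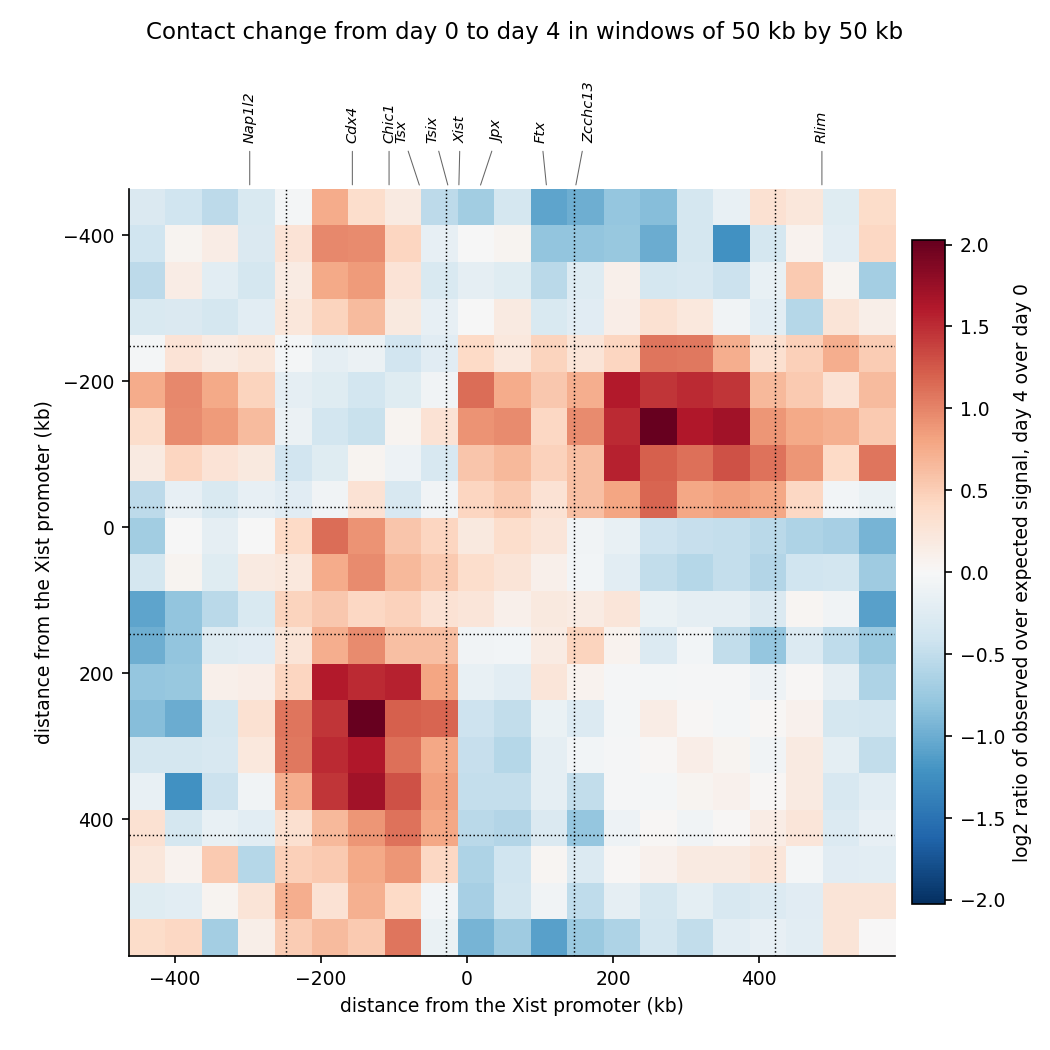
Log2 ratio of observed over expected signal, day 4 over day 0, in 231 windows of 50 kb by 50 kb (shown on both sides of the diagonal); both axes give the distance from the Xist promoter in kb, dotted lines are the day 0 boundaries and gene names stand above their positions. The red block joins the Cdx4-Tsix stretch with the Zcchc13 stretch, with a highest value of 2.02.

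The largest block of gain joined the Cdx4-Tsix and the Zcchc13 stretches, which lie on opposite sides of the Xist-Ftx stretch. Their mean observed over expected signal was 0.399 at day 0 (1846 contacts) and 0.927 at day 4 (4791 contacts), a 2.32-fold gain (log2 ratio 1.22, interval 1.12 to 1.31). Their share of all signal was 1.96% at day 0 and 5.21% at day 4. Contact between them was thus far below the average for its distance at day 0 and close to it at day 4, and the day 7 control map had 0.953. Of the 30 windows of this block 27 were gained, where 19.0% of all windows were.

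The 10 windows that gained most were all in this block. The highest joined chrX:100515001-100565000, which holds Cdx4, a caudal-type homeobox gene, and the start of Chic1, with chrX:100915001-100965000. Its value was 0.212 at day 0 (43 contacts) and 0.863 at day 4 (167 contacts), 4.07-fold higher (log2 ratio 2.02, interval 1.53 to 2.52). Its day 7 control value was 0.818, close to day 4. The same Cdx4 window gained 3.26-fold with chrX:101015001-101065000 (0.262 to 0.854), 3.08-fold with chrX:100965001-101015000 (0.369 to 1.14) and 2.85-fold with chrX:100865001-100915000 (0.302 to 0.859). These 4 partners lie side by side, so the gain was spread over the stretch and not on 1 site.

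The window before it, chrX:100465001-100515000, gave 4 of the 10. It gained 3.04-fold with chrX:100865001-100915000 (0.332 to 1.01), 2.84-fold with chrX:100965001-101015000 (0.398 to 1.13), 2.72-fold with chrX:101015001-101065000 (0.277 to 0.754) and 2.72-fold with chrX:100915001-100965000 (0.343 to 0.934). The window with the end of Chic1 and with Tsx, chrX:100565001-100615000, gave the other 2. It gained 2.96-fold with chrX:100865001-100915000 (0.382 to 1.13, on 126 and 420 contacts), and 2.44-fold with chrX:101015001-101065000 (0.379 to 0.926). All 10 intervals lay above 0, which is partly fixed by taking the 10 highest ratios.

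Gains thinned out towards both ends of the Cdx4-Tsix stretch. The Cdx4 window was gained with 13 of its 21 partners, the window before it with 12, the Chic1 and Tsx window with 9, the window of the Tsix promoter (chrX:100615001-100665000) with 6 and the first window (chrX:100415001-100465000) with 4. None of the 5 was lost with any partner. Their median log2 ratios over all partners were 0.77, 0.66, 0.46, 0.29 and 0.28 in that order. The middle of the stretch, around Cdx4, thus had the largest share of gains.

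Gains with the other stretches were smaller. The Cdx4-Tsix and Rlim stretches had 0.809 at day 0 and 1.23 at day 4, a 1.52-fold gain (log2 ratio 0.60, interval 0.46 to 0.74), with 6 of 15 windows gained. That value turned to a log2 ratio of -0.15 when the median at equal separation was the expected value, under which separations with a median of 0 dropped out. The Cdx4-Tsix and Xist-Ftx stretches, neighbours across the Tsix-Xist boundary, had 0.417 at day 0 and 0.590 at day 4 (log2 ratio 0.50, interval 0.42 to 0.58), with 5 of 15 windows gained. Towards the other side, the Nap1l2 and Cdx4-Tsix stretches had 0.845 and 0.993 (log2 ratio 0.23, interval 0.15 to 0.31), with 6 of 20 windows gained. Contact across the Tsix-Xist border thus remained well below the average for its distance on day 4, at a higher level than on day 0. Contact inside the Cdx4-Tsix stretch itself was 1.47 at day 0 and 1.26 at day 4 (log2 ratio -0.22, interval -0.26 to -0.17), and none of its 15 windows was gained or lost.

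Losses were found between stretches that did not include Cdx4-Tsix. The Xist-Ftx and Rlim stretches had the highest mean of all at day 0, 2.08, and 1.45 at day 4 (3361 and 2861 contacts), 1.43-fold lower (log2 ratio -0.52, interval -0.60 to -0.44), with 5 of 9 windows lost. The day 7 control map had 1.45. The Nap1l2 and Xist-Ftx stretches had 0.724 and 0.550 (log2 ratio -0.39, interval -0.53 to -0.26), with 3 of 12 windows lost. The Nap1l2 and Zcchc13 stretches had 1.08 and 0.861 (log2 ratio -0.33, interval -0.46 to -0.21), with 7 of 24 windows lost. That last loss was relative to other pairs at the same distance: the share of the pair in all signal was 2.17% at day 0 and 2.68% at day 4, and its log2 ratio was 0.30 with each map scaled to its total.

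Smaller shifts were seen elsewhere. The log2 ratio was -0.24 between the Zcchc13 and Rlim stretches (2 of 18 windows lost), -0.19 between Xist-Ftx and Zcchc13 (1 of 18) and -0.26 within the Nap1l2 stretch (0 of 10). Within the Xist-Ftx stretch contact was 1.22 at day 0 and 1.41 at day 4 (log2 ratio 0.21, interval 0.16 to 0.26), and day 7 had 1.52. Xist-Ftx was in that way the reverse of Cdx4-Tsix: more contact inside, and less with the Zcchc13 and Rlim stretches. The Zcchc13 stretch had a log2 ratio of -0.09 within itself, with 1 of 21 windows lost. The intervals held 0 within the Rlim stretch (-0.14 to 0.02) and between Nap1l2 and Rlim (-0.18 to 0.26).

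**Figure D2:**
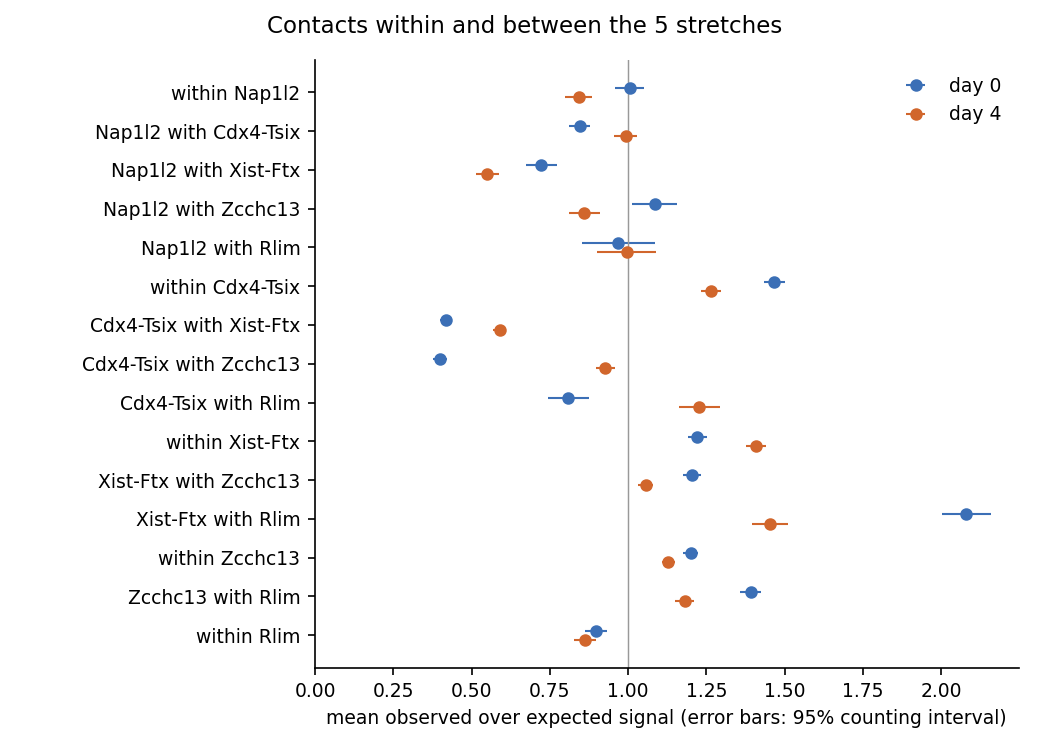
Mean observed over expected signal at day 0 (blue) and day 4 (orange) within and between the 5 stretches; error bars are 95% counting intervals from 1 library each, and the grey line marks the average at equal separation. Cdx4-Tsix with Zcchc13 went from 0.399 to 0.927 and Xist-Ftx with Rlim from 2.08 to 1.45, both towards 1.

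The 10 windows that lost most fell in 2 places. One was the right end of the map, chrX:101215001-101265000, which lost contact with the Ftx window chrX:100765001-100815000 from 1.61 (160 contacts) to 0.751 (93 contacts; log2 ratio -1.10, interval -1.49 to -0.72). It lost with the Xist and Jpx window, chrX:100665001-100715000, from 2.40 (189 contacts) to 1.25 (135 contacts; log2 ratio -0.95, interval -1.28 to -0.61). In all, 6 of the 21 windows of the right end were lost and 2 gained. Both losses were from contact above the average, and the Xist and Jpx window stayed above it at day 4. With each map scaled to its total, the Ftx window had a log2 ratio of -0.83. The Xist and Jpx window then had -0.52, which is under 1.5-fold.

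The other place was the left end of the map, with 8 of the 10. The lowest of all joined chrX:100265001-100315000 with chrX:101015001-101065000, at 1.17 on 31 contacts and 0.498 on 25 contacts (log2 ratio -1.23, interval -2.06 to -0.40). The same window lost with 3 others of the 10, among them the Ftx window (0.601 to 0.345) and the Zcchc13 window chrX:100815001-100865000 (0.832 to 0.479). The first window of the map, chrX:100215001-100265000, gave 4, from the Ftx window (1.17 to 0.558) to chrX:100865001-100915000 (1.83 to 1.06). Contacts numbered 25 to 76 per window and day in these 8, so their sizes were known less well than those of the gains. With each map scaled to its total, 1 of the 8 turned to a log2 ratio of 0.06 and the others lay between -0.51 and -0.14 save for the loss between the left end's second window and Ftx, which stayed past 1.5-fold.

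Gained windows started low and lost windows high, which is partly fixed by calling them on the ratio of day 4 to day 0. The gained windows had a median of 0.408 at day 0 and 0.879 at day 4; 43 of the 44 were under 1 at day 0 and 28 still were at day 4. The lost windows had a median of 1.34 at day 0 and 0.765 at day 4, and 17 of the 20 were over 1 at day 0. No window at a separation under 150 kb was gained or lost; gained windows spanned 150 to 750 kb and lost windows 250 to 900 kb. The SD of log2 observed over expected over the windows was 0.766 at day 0 and 0.488 at day 4. The spread between places at equal distance was thus smaller in the day 4 map. Counting error adds to both SDs and was not taken out. The median window held 170 contacts at day 0 and 209 at day 4.

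Signal also moved from short to long separations. Of all signal at 10 kb or more, 15.3% lay at 10 to 20 kb on day 0 and 12.1% on day 4, a difference of -3.22 percentage points (interval -3.61 to -2.82). The share at 20 to 50 kb was 20.8% and 19.4%. From 50 to 200 kb the shares differed by no more than their counting error (16.6% and 17.0% at 50 to 100 kb, 20.2% and 19.8% at 100 to 200 kb). Farther out each class was higher at day 4, and the more so the longer the distance: 1.07 times at 200 to 300 kb, 1.12 times at 300 to 500 kb, 1.44 times at 500 to 750 kb and 1.64 times beyond, where the share was 1.06% at day 0 and 1.75% at day 4.

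At 300 kb or more the share was 16.2% (interval 15.9 to 16.5) at day 0 and 20.1% (interval 19.8 to 20.4) at day 4, and the day 7 control map had 19.7%. Taken singly, the mean signal was higher at day 4 at 38 of the 40 separations from 300 to 500 kb and at 48 of the 50 from 500 to 750 kb, and lower at 7 of the 8 under 50 kb. It was also higher at all 10 separations from 50 to 100 kb and at 16 of the 20 from 100 to 200 kb, where the median log2 ratios were 0.11 and 0.03 and the shares of all signal hardly differed. Unlike the shares, these means were not scaled to the map total, which was 153731.5 at day 0 and 161757.9 at day 4 for the pairs used. The slope of log signal on log separation was flatter at day 4 from 10 to 50 kb (-0.83 against -0.68, difference 0.15, interval 0.11 to 0.19) and from 200 to 500 kb (-1.15 against -0.99, difference 0.16, interval 0.07 to 0.25). In maps balanced to equal bin totals the difference from 200 to 500 kb was 0.08, with an interval that held 0. The slope difference had an interval that held 0 from 50 to 200 kb (-0.62 and -0.67) and from 500 to 900 kb (-1.59 and -1.30).

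**Figure D3:**
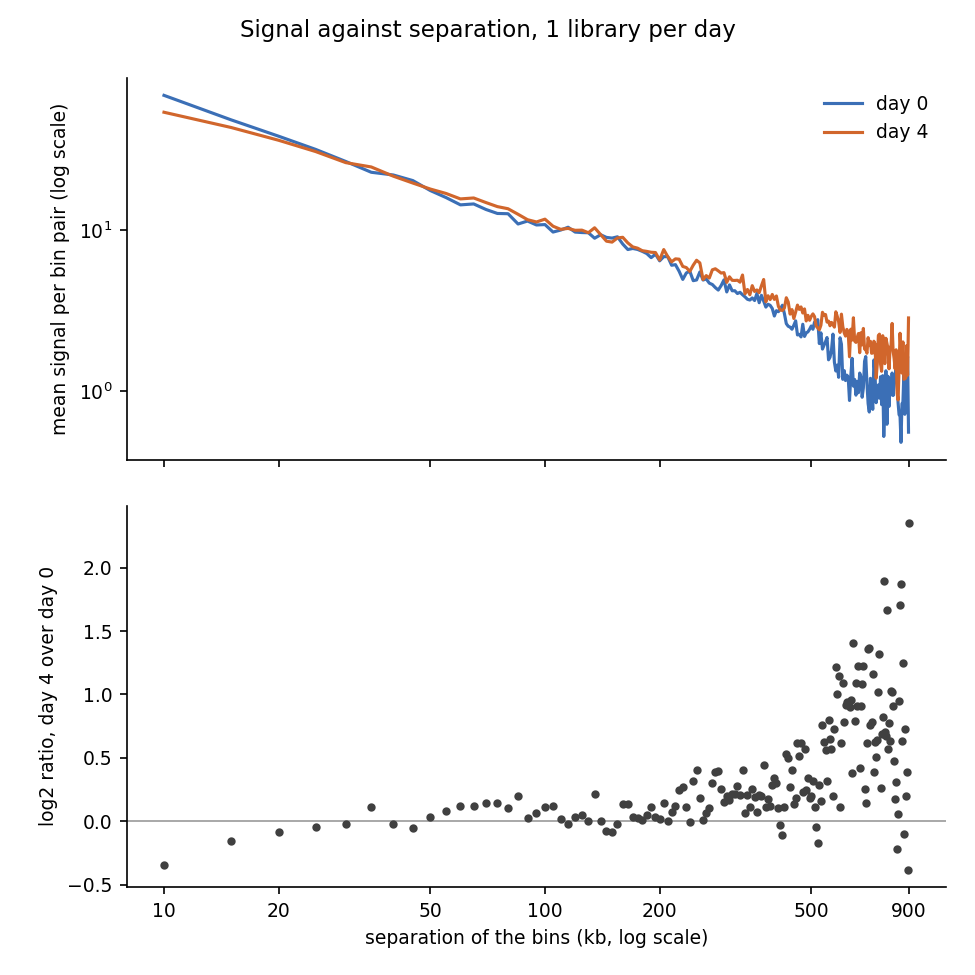
Mean signal per bin pair against separation in kb at day 0 (blue) and day 4 (orange), both axes on a log scale (top), and the log2 ratio of day 4 over day 0 at each separation (bottom), without error bars since each day is 1 library. The points lie below 0 at 7 of the 8 separations under 50 kb and mostly above 0 beyond 200 kb, where they scatter more. Signal was not scaled to the total of the map.

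The move to longer distances was uneven along the region. For each bin, the signal was split into a near (10 to 100 kb), a middle (100 to 300 kb) and a far share (over 300 kb). The far share was higher at day 4 in 161 of 207 bins, with an interval above 0 in 110 and below 0 in 14, and its median over bins was 15.4% at day 0 and 18.3% at day 4. All 44 bins of the Cdx4-Tsix stretch had a higher far share, each with an interval above 0; their median was 7.63% at day 0 and 17.4% at day 4. Their near share was lower in 43 of 44 bins (median 60.5% and 50.3%).

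The Zcchc13, Rlim and Nap1l2 stretches moved the same way by less. The far share was higher in 48 of 55 bins of the Zcchc13 stretch (median 12.5% and 16.2%), in 30 of 33 of the Rlim stretch (27.8% and 31.4%) and in 34 of 40 of the Nap1l2 stretch (19.1% and 22.7%). The Xist-Ftx stretch went the other way: its far share was lower in 30 of 35 bins (median 19.2% and 16.5%), and its near share was higher in 25 (49.6% and 53.5%). A single run of 17 bins with a lower far share, chrX:100655001-100740000, covered Xist and Jpx (median difference -5.62 percentage points). No other run of bins with a lower far share was longer than 10 bins, and the run of 10, chrX:100780001-100830000, lay over the start of Ftx and Zcchc13. The bin with the largest drop in that share, chrX:100705001-100710000 next to Jpx, had 24.8% at day 0 and 12.9% at day 4.

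**Figure D4:**
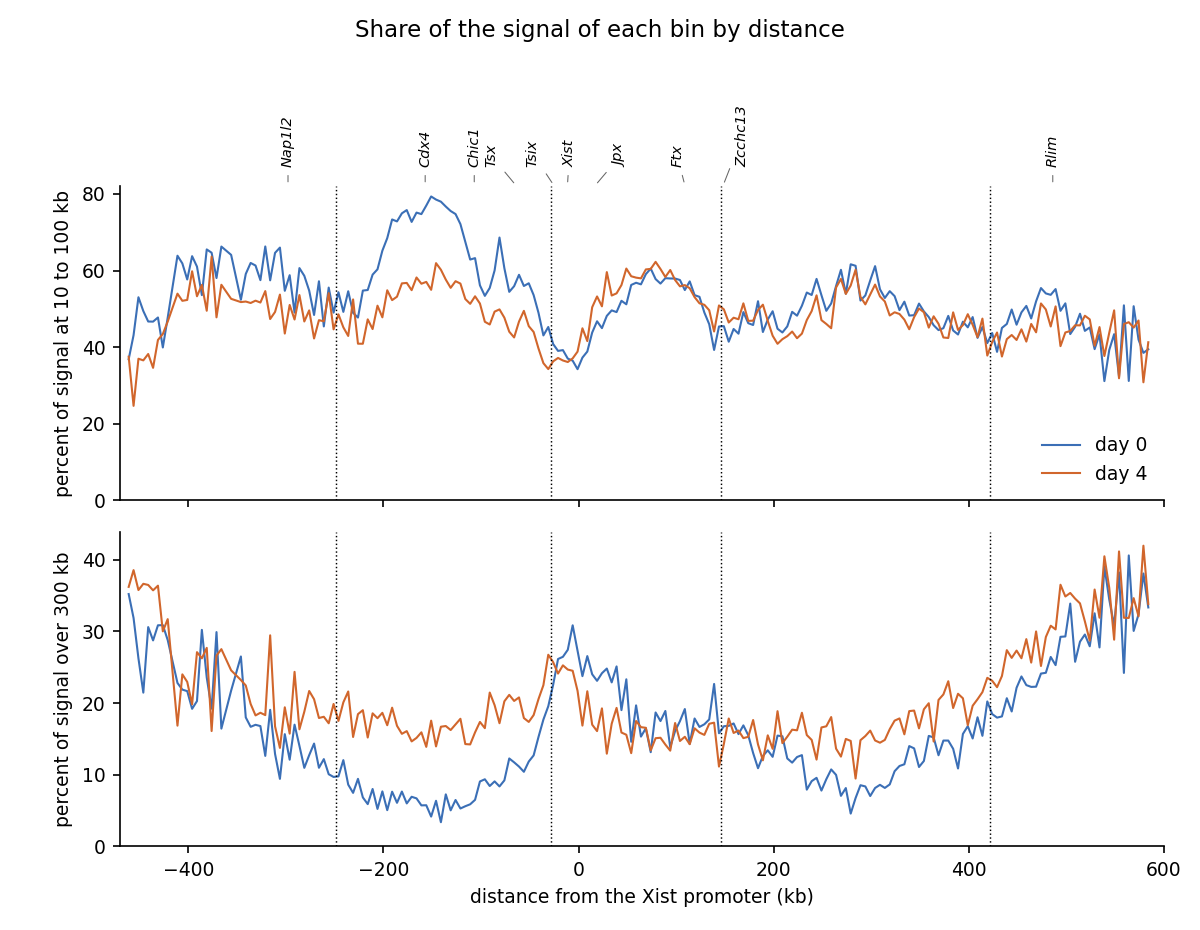
Share of the signal of each 5 kb bin at 10 to 100 kb (top) and over 300 kb (bottom) in percent against the distance from the Xist promoter in kb, at day 0 (blue) and day 4 (orange), with the day 0 boundaries as dotted lines. In the Cdx4-Tsix stretch the far share had a median of 7.63% at day 0 and 17.4% at day 4, and in 30 of the 35 bins of the Xist-Ftx stretch the blue line lies above the orange one.

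Genes of the Cdx4-Tsix stretch turned outward alike. For each gene the bins of its body, or of its promoter for Tsix, Xist, Jpx and Rlim, were taken with 10 kb to each side. Cdx4 had 73.1% of its signal within 100 kb at day 0 and 54.0% at day 4, and 6.39% and 16.7% beyond 300 kb (difference 10.3 percentage points, interval 8.99 to 11.6). Chic1, which encodes a protein with a cysteine-rich hydrophobic domain, had a far share of 8.36% and 19.3%. Tsx, a gene first known from testis, had 12.2% and 21.1%, and the Tsix promoter 12.9% and 19.8%. The rise was thus largest at Cdx4 and Chic1 and smaller towards Tsix, with no test of that order.

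Their contact with the Zcchc13 stretch was higher at day 4 for all 4. It was 0.310 and 0.853 at Cdx4 (219 and 646 contacts; log2 ratio 1.46, interval 1.21 to 1.71), and 0.313 and 0.810 at Chic1 (441 and 1217 contacts; log2 ratio 1.37). Tsx had 0.431 and 0.994 (log2 ratio 1.21), and the Tsix promoter 0.410 and 0.930 (log2 ratio 1.18). The intervals of the 4 overlapped in part, so these log2 ratios cannot be ranked firmly. Cdx4 also had more contact with the Nap1l2 stretch (0.525 and 0.870; log2 ratio 0.73, interval 0.51 to 0.95), where the interval of the Tsix promoter held 0 (log2 ratio -0.15, interval -0.36 to 0.06).

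Xist and the genes beside it, Jpx, Ftx and Zcchc13, had smaller far shares at day 4. The Xist promoter had 28.0% of its signal beyond 300 kb at day 0 and 22.7% at day 4 (difference -5.28 percentage points, interval -6.98 to -3.58), and 34.7% and 37.7% within 100 kb. Jpx had 26.1% and 19.4% beyond 300 kb (difference -6.67) and 37.6% and 43.8% within 100 kb. Ftx had 20.5% and 17.9% beyond 300 kb. Bins of neighbouring genes overlap in part, those of Chic1 with Tsx, Tsx with Tsix, Xist with Jpx and Ftx with Zcchc13, so the values of these pairs are not separate evidence. Zcchc13, an intronless gene for a zinc-finger protein at the start of the Zcchc13 stretch, had 18.8% and 16.4%.

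Xist, Jpx, Ftx and Zcchc13 had less contact with the Rlim stretch at day 4. For Xist it was 3.30 at day 0 (726 contacts) and 2.10 at day 4 (541 contacts; log2 ratio -0.65, interval -0.82 to -0.48). Day 7 control cells had 2.54. For Jpx it was 2.83 and 1.67 (log2 ratio -0.77, interval -0.96 to -0.57), for Ftx 1.68 and 1.30 (log2 ratio -0.37) and for Zcchc13 2.23 and 1.46 (log2 ratio -0.62). All 4 stayed above the average for their distance. With the Zcchc13 stretch the log2 ratio was -0.26 at Xist, -0.44 at Jpx and -0.10 at Ftx. With the Cdx4-Tsix stretch the same genes had more contact: 0.462 and 0.678 at Xist (log2 ratio 0.55, interval 0.39 to 0.72), 0.320 and 0.537 at Jpx (log2 ratio 0.75) and 0.426 and 0.588 at Ftx (log2 ratio 0.46).

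At the 2 ends of the map the genes differed. The Rlim promoter had 30.2% of its signal beyond 300 kb at day 0 and 35.9% at day 4 (difference 5.68 percentage points, interval 3.52 to 7.84). Its contact with the Xist-Ftx stretch was 2.56 and 2.11 (log2 ratio -0.28), and with the Cdx4-Tsix stretch 1.30 and 1.59 (log2 ratio 0.29, interval 0.02 to 0.55). Nap1l2, which encodes a nucleosome assembly protein of neurons, had a far share of 13.9% and 18.0%. Its contact was 0.866 and 1.03 with the Cdx4-Tsix stretch (log2 ratio 0.26), while the intervals of its log2 ratios with the Xist-Ftx and Zcchc13 stretches held 0. Nap1l2 had less contact at day 4 inside its own stretch (1.11 and 0.928, log2 ratio -0.26, interval -0.43 to -0.09). With the Rlim stretch it had 1.13 and 0.802, on 77 and 84 contacts (log2 ratio -0.49, interval -0.97 to -0.01).

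The side on which a bin made its contacts was mostly kept. The log2 ratio of signal to the right over signal to the left within 200 kb could be taken in 130 bins, and its sign differed between the days in 22. The lowest value of both maps was at the same bin by Tsix, chrX:100630001-100635000 (-1.56 at day 0 and -1.27 at day 4). The highest moved from 100680001 (1.66) to 100690001 (1.36), which lies in Jpx. Tsix thus faced left and Xist and Jpx right on both days.

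Insulation could be scored in 170 bins. The score was higher at day 4 by 0.25 or more, meaning more contact across the bin, in 26 (15.3%), and lower by as much in 22 (12.9%). The 26 and 22 became 29 and 6 in maps balanced to equal bin totals, and 31 and 4 over bins with a probe, so that the number of lower bins was not stable. The score ranged from -1.21 to 0.889 over the bins at day 0 (SD 0.447) and from -0.790 to 0.704 at day 4 (SD 0.348). Runs of changed bins alternated along the region: lower at chrX:100330001-100355000, higher at chrX:100410001-100450000, lower at chrX:100485001-100545000, higher at chrX:100640001-100730000 and lower at chrX:101140001-101165000. The 2 deepest borders of day 0, at the left and between Tsix and Xist, thus lay in runs of higher score at day 4, and the interior around Cdx4 in a run of lower score.

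The longest run, 18 bins from the end of the Cdx4-Tsix stretch over Xist and Jpx, peaked in the bin of the Xist promoter. There the score was -1.03 at day 0 (1451 contacts across the bin) and -0.53 at day 4 (2197 contacts; difference 0.50, interval 0.40 to 0.59). The lowest bin of the day 0 map, 100650001, had -1.21 at day 0 and -0.77 at day 4. At day 4 the minimum was called nearer to Tsix, at 100640001, with -0.79 (interval -0.86 to -0.72). That interval overlapped the day 4 interval of 100650001 (-0.84 to -0.70), so a shift of the minimum was not resolved. Day 7 had -0.92 at 100640001 and -0.93 at 100650001. In the run's last bin, 100725001, the score was 0.35 at day 0 and 0.60 at day 4, so the run ended inside the Xist-Ftx stretch and not at a border. At Tsx and at the Tsix promoter the intervals of the difference held 0 (-0.09 to 0.08 and -0.07 to 0.11).

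The left boundary, 100430001, had -0.78 at day 0 (953 contacts) and -0.38 at day 4 (1160 contacts; difference 0.40, interval 0.27 to 0.53), and the day 7 control map had -0.10. It stood in the same bin on both days. Between these 2 borders lay the largest fall in score: the bin 100520001 at Cdx4, the highest of the day 0 map, had 0.89 at day 0 (4011 contacts) and 0.55 at day 4 (2985 contacts; difference -0.34, interval -0.41 to -0.27). At day 4 the highest bin was 100740001 in the Xist-Ftx stretch, with 0.70. The peak of insulation scores had thus passed from Cdx4 to the stretch of Jpx and Ftx. With windows of 200 kb the difference at the Cdx4 bin was -0.08.

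**Figure D5:**
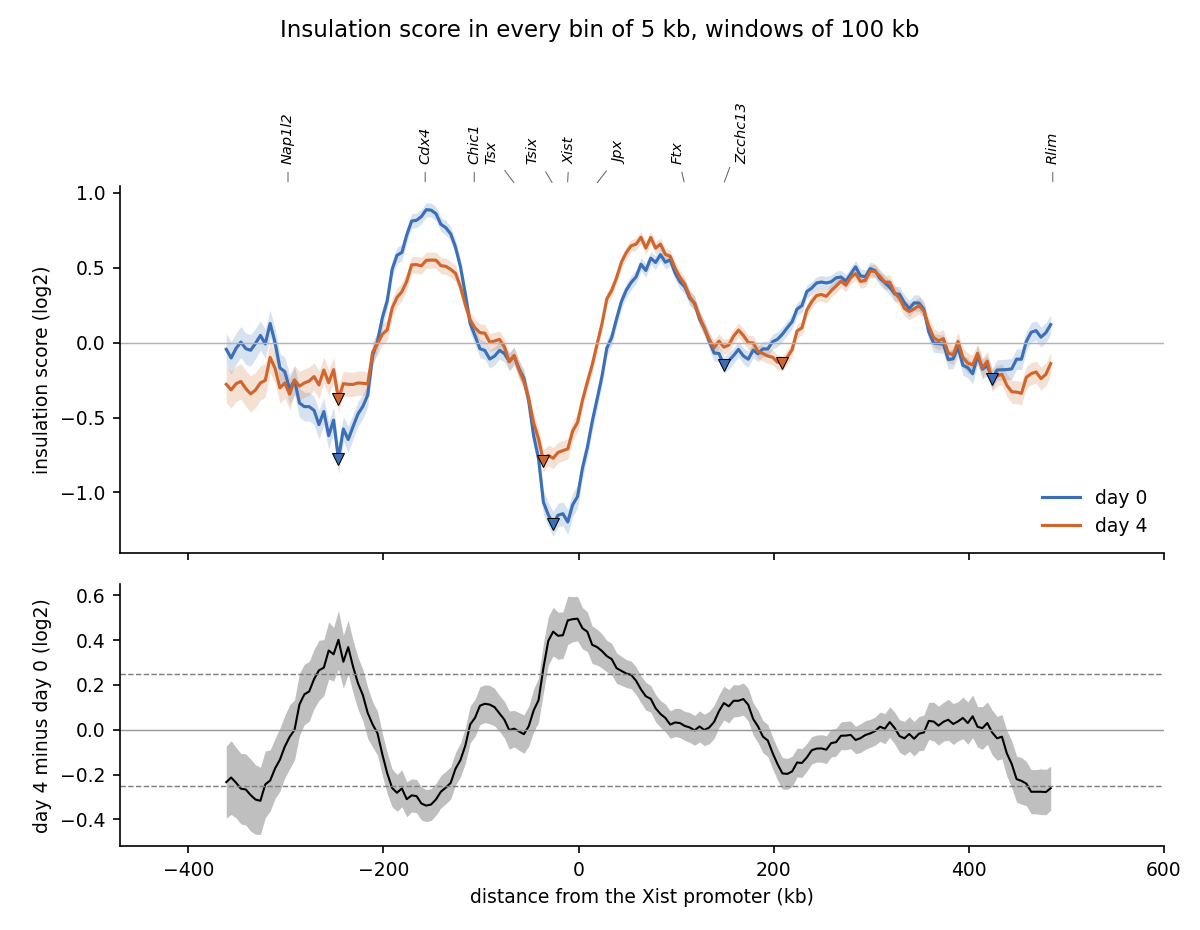
Insulation score in every scored bin at day 0 (blue) and day 4 (orange) with 95% counting intervals as bands and boundaries as triangles (top), and the difference of day 4 minus day 0 with its interval (bottom), against the distance from the Xist promoter in kb; dashed lines mark 0.25 in either direction. The difference reaches 0.50 at the Xist promoter and -0.34 at Cdx4.

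Calls of shallower borders differed between the days. The boundary at Zcchc13, 100825001, had -0.15 at day 0 and -0.03 at day 4 (difference 0.12, interval 0.04 to 0.19) and was no minimum of the day 4 map. It lay 149 kb from the Xist promoter, and the day 4 map had a boundary farther on instead, 209 kb from it at 100885001, with 0.06 at day 0 and -0.14 at day 4 (difference -0.19, interval -0.27 to -0.12). Zcchc13 lay at the edge of the Xist-Ftx stretch at day 0 and inside it by the day 4 borders. That rests on the rule for calling minima. The day 4 score still dipped beside Zcchc13, to -0.03 at 100815001, with lower scores within 50 kb of it. Day 7 had -0.13 at 100815001, -0.12 at 100870001 and -0.08 at 100885001. The boundary before Rlim, 101100001, had -0.24 and -0.25 (interval of the difference -0.11 to 0.09), yet was no local minimum at day 4. The day 4 score fell further beyond it, to -0.34 at 101130001 (-0.11 at day 0, difference -0.23, interval -0.33 to -0.12). No boundary could be called there, since some bins within 50 kb of it were not scored. That dip was close to the left boundary of day 4 (-0.38). The other borders named here were shallow on either day beside those at Tsix and at the left.

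The other peaks of the difference were a rise of 0.14 beyond Zcchc13 at 100845001 (-0.09 to 0.05) and a rise of 0.12 in Chic1 at 100580001 (-0.05 to 0.06). Falls were found at 100350001 in the Nap1l2 stretch (0.05 to -0.27, difference -0.32), at 101155001 in Rlim (0.07 to -0.21, difference -0.28) and at 100890001 (0.10 to -0.10, difference -0.20). The fifth fall, at 100940001, was -0.06 with an interval that held 0 (-0.12 to 0.01). In the middle of the Zcchc13 stretch the days thus differed by less than the counting error.

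Focal contacts were local maxima of 2 or more in windows of 15 kb by 15 kb. The day 0 map had 47 with a median of 2.79, and the day 4 map 38 with a median of 2.46. Which day had more depended on the processing: the median at equal separation gave 41 at day 0 and 45 at day 4, and maps balanced to equal bin totals gave 45 and 60. Of these, 14 were paired within 15 kb, or 29.8% of the day 0 set and 36.8% of the day 4 set. At day 4, 46 of the 47 day 0 maxima were lower than on day 0, and 27 of the 38 day 4 maxima were higher than on day 0; both directions are partly fixed by the choice of maxima in 1 map.

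The strongest contact of day 0 joined chrX:100665001-100680000, the start of Xist, with chrX:101170001-101185000, the start of Rlim, 505 kb apart. It had 6.34 at day 0 (103 contacts) and 3.06 at day 4 (52 contacts; log2 ratio -1.05, interval -1.56 to -0.56), and 2.66 at day 7. The same Xist end had 4.62 and 2.22 with chrX:101110001-101125000 in the Rlim stretch (65 and 37 contacts). Of the next 3, 1 joined chrX:100715001-100730000, beyond the end of Jpx, with chrX:101210001-101225000 (4.18 and 1.60), 1 joined chrX:100885001-100900000, the site of the day 4 boundary, with chrX:101205001-101220000 (4.12 and 2.47), and 1 joined chrX:100470001-100485000 with Chic1 at chrX:100560001-100575000 (4.02 and 2.30, on 173 and 98 contacts). All 5 were still above 1.5 at day 4.

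The Xist to Rlim contact was still among the highest at day 4, with its maximum moved slightly, to chrX:100670001-100685000 and chrX:101180001-101195000 (5.51 at day 0 and 3.62 at day 4, 88 and 53 contacts). Of the other day 4 maxima, the Xist start with the start of Ftx, chrX:100805001-100820000, had 3.54 and 3.23 (240 and 226 contacts; interval of the log2 ratio -0.40 to 0.14) and 5.23 at day 7. The contact of chrX:100450001-100465000 with chrX:100630001-100645000, in Tsix, had 3.50 and 3.23 (148 and 125 contacts), also with an interval that held 0. The highest day 4 value, 3.77, rested on 12 contacts and had 3.74 at day 0 on 7. The fifth, from chrX:100605001-100620000 by Tsx to chrX:101205001-101220000, had 1.75 and 3.22 (14 and 40 contacts), with an interval that reached below 0. The Tsix window also had its day 0 maximum with chrX:100455001-100470000, which overlaps chrX:100450001-100465000. That maximum had 3.52 and 2.55 (interval of the log2 ratio -0.84 to -0.10). Whether this contact fell thus depended on the map that set the maximum. Of other day 0 maxima of the Tsix window, 2.22 and 1.55 were found with chrX:100575001-100590000 in Chic1 (interval -0.84 to -0.20). With chrX:100230001-100245000 they were 3.77 and 1.89 (interval -1.82 to -0.21). Those with chrX:100335001-100350000, chrX:100380001-100395000 and chrX:100420001-100435000 were lower too, with intervals that held 0.

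The largest changes among focal contacts rested on few contacts. The 5 largest falls had 10 to 35 contacts at day 0 and 3 to 11 at day 4; the best counted besides a contact inside the Nap1l2 stretch was Ftx, chrX:100755001-100770000, with chrX:101215001-101230000, at 3.14 (27 contacts) and 0.901 (11 contacts). The 5 largest rises had 1 to 5 contacts at day 0 and 11 to 22 at day 4, with values at day 4 of 2.03 to 2.37. Among them were chrX:100530001-100545000, just past the end of Cdx4, with chrX:101185001-101200000 beside Rlim (0.630 and 2.37, on 3 and 17 contacts; interval of the log2 ratio 0.12 to 4.32) and the border pair of chrX:100420001-100435000 with chrX:101090001-101105000 (0.154 and 2.03, on 1 and 14 contacts). Their sizes were thus poorly known. Between the Cdx4-Tsix and Rlim stretches, day 0 had 3 focal contacts and day 4 had 7. Neither day had any between the Cdx4-Tsix and Zcchc13 stretches. Most of the 7 held fewer than 10 contacts at day 0, too few to be listed there whatever their value. The 3 and the 7 thus cannot be read as a gain. Between the Xist-Ftx and Rlim stretches, each day had 5.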

How the data were processed

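Hi-C2 contact maps of mouse embryonic stem cells were used as deposited by the authors, as 5 kb matrices of signal (mm9). Juicer 1.5.3, HOMER 4.8, Novoalign 3.00.02 and cutadapt 1.2.1 are named in the submitters' processing notes, with neither order nor settings. The deposited signal was a whole number of contacts divided by a factor per bin, close to the square root of the bin total; contacts were recovered from it (100% of values whole within 0.01 at both days). Maps without allele separation were used; the day 7 control map is named in the labels of the first control sample, and whether it pools both is not stated.

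Bins under 0.25 of the median total, and separations under 10 kb, were left out. Intervals are Poisson counting errors carried through each ratio (95%), and for focal contacts exact binomial ones. No test across samples was possible with 1 library per day, so no p-value is given. The 26 alternatives are in the closing section. Members, lists and rules were chosen with earlier results of these data known. Regions were named by rule: the 10 highest and 10 lowest called windows, every boundary, the 5 highest and 5 lowest peaks of insulation difference, the 5 highest focal contacts of each map and the 5 that changed most each way. Gene positions are those of GENCODE vM1 (Jpx is Enox and Ftx is B230206F22Rik there). Probe positions came from the authors' deposited list (1067 probes). Scripts ran in Python 3.11.15 with numpy 2.4.6, pandas 2.3.3 and matplotlib 3.10.9, and were tested on simulated data.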

Additional observations from a re-analysis of the deposited data

How the results depend on the processing

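Under the alternatives, 77 values of the main results kept their direction and stayed within a tolerance, 42 moved and 2 reversed. The tolerance was 1.5-fold for counts, the main interval for other values and the spread over bins for far shares. Values within it could still differ. Gained windows went from 44 to 31 with the median at equal separation, and lower bins from 22 to 30 without the filter on low bins. The slope difference from 200 to 500 kb went from 0.16 to 0.08 in balanced maps, with an interval that held 0. With each map scaled to its total, 67 windows were gained and 5 lost; the window of chrX:100215001-100265000 with chrX:100865001-100915000 reversed to 0.056, and Nap1l2 with Zcchc13 reversed to 0.30. Other log2 ratios between stretches were then -0.15 (Nap1l2 with Xist-Ftx), 0.75 (Nap1l2 with Rlim), -0.33 (within Cdx4-Tsix), 1.41 (Cdx4-Tsix with Zcchc13), 1.24 (Cdx4-Tsix with Rlim), 0.088 (within Xist-Ftx), -0.073 (Xist-Ftx with Zcchc13), -0.27 (Xist-Ftx with Rlim) and -0.11 (Zcchc13 with Rlim). With the median at equal separation, 32 of 195 windows were lost, Cdx4-Tsix with Rlim reversed to -0.15, and the others were 0.088 (Nap1l2 with Cdx4-Tsix), -0.57 (Nap1l2 with Xist-Ftx), -0.53 (Nap1l2 with Zcchc13), 0.40 (Cdx4-Tsix with Xist-Ftx), 0.96 (Cdx4-Tsix with Zcchc13), -0.34 (Xist-Ftx with Zcchc13), -0.73 (Xist-Ftx with Rlim), -0.14 (within Zcchc13) and -0.39 (Zcchc13 with Rlim); Nap1l2 with Rlim gave no value. With maps balanced to equal bin totals they were -0.13 (within Nap1l2), 0.32 (Nap1l2 with Cdx4-Tsix) and -0.14 (within Zcchc13), 6 bins had an insulation score lower by 0.25 or more, and day 4 had 60 focal contacts against 45 at day 0, the reverse of the order reported (with the median at equal separation, 45 against 41). Windows of 25 kb gave 183 gained and 100 lost of 809, 18 focal contacts at day 4 and 8 day 0 focal contacts with a partner; windows of 100 kb gave 9 gained and 5 lost of 66. For insulation, bins with a probe gave 4 lower bins and 0.57 at the left boundary; separations of 50 kb or more gave 0.60 at the lowest day 0 bin; windows of 50 kb gave 41 higher bins of 190, 0.31 at the lowest day 0 bin and 0.22 at the left boundary; windows of 200 kb gave 3 lower bins of 130, 0.60 at the lowest day 0 bin and -0.081 at the Cdx4 bin. The share at 300 kb or more rose by 3.28 percentage points in recovered contacts. Apart from the changed size and number of windows, the cause was not tested. For the named windows, 107 values kept their call, 8 fell below 1.5-fold and 1 reversed. No paired analysis was possible because day 0 and day 4 have 1 library each, and for the same reason no replicate was left out. Pairs of bins had few contacts, so windows of 15 kb at long separations are limited by depth.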
